A study of Mus musculus with 4 samples.

Results

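Isolated liver-only distal initiation regions are stretches of the mouse genome where transcription started in embryonic liver away from the promoters of the GENCODE annotation, was not called in yolk sac, and had at most 1 like neighbour nearby. There were 3055 of them among 61095 initiation regions in all, or 5%. They were chosen by the calls themselves. Peaks from the 4 lists were merged where they shared 1 bp or more. Regions with a peak in both liver lists and in neither yolk sac list were kept if no GENCODE transcript start lay within 500 bp. Kept regions no more than 12.5 kb apart were joined into chains, and those in chains of 1 or 2 are the set described here. Presence in liver, absence from yolk sac, distance from a start and isolation were thus fixed by the choice, and none of them is a finding.

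The 4 lists came from PRO-seq (precision nuclear run-on sequencing), which maps RNA polymerases engaged in transcription, on 2 libraries of whole liver and 2 of whole yolk sac at E14.5 (days of gestation). All embryos had C57BL/6J mothers and fathers of mixed C57BL/6J and CAST/EiJ background that carried CAST/EiJ alleles alone at Dlk1/Gtl2 (chromosome 12), and the strain label reads "Mixed C57BL/6h and CAST/EiJ". Each library pooled 6 embryos. No treatment or mutation separates the tissues, and the labels do not say whether the replicates came from separate litters, so any p-value measures only the spread between these samples. Liver is a mixture of cell types here, and more cells of a type cannot be told apart from more transcription per cell.

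At this age the liver is the main organ of blood formation: red cell precursors fill it and sit among hepatocyte precursors, with fewer megakaryocytes, myeloid cells and blood progenitors. The yolk sac consists of an absorptive endoderm that makes many of the same plasma proteins as hepatocytes, a mesoderm and blood vessels. Active enhancers are transcribed in both directions into short, unstable RNAs, and run-on reads show these start points. In red cell precursors many enhancers are bound by GATA1, which recognises the letters AGATAA, and by a complex in which GATA1 and the E-box factor TAL1 sit together on a CTG followed by GATA letters.

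Sequence could be read for the 53 regions that hold a whole 300-base RefSeq promoter window, 250 bases before to 50 bases after a start, from the RefSeq table of GRCm38.p6. These windows belong to starts, mostly of predicted genes, that RefSeq lists and GENCODE does not list within 500 bp. Of the 53, 21 (39.6%, 95% Wilson interval 27.6 to 53.1) held AGATAA on either strand. The same letters were in 19 of 131 such windows (interval 9.49 to 21.5%) inside isolated yolk-sac-only distal regions, in 13.4% of 149 inside distal regions called in all 4 lists, and in 11.2% of all 32841 RefSeq windows. The letters AATAGA, which are AGATAA read backwards and serve as a control of the same composition, were in 11.3% of the 53 windows and 10.4% of all windows. The CTG followed 7 or 8 bases on by AGATAA was in 10 of the 53 (18.9%, interval 10.6 to 31.4), against 0.763% in yolk-sac-only regions, 2.68% in shared regions and 0.600% of all windows. A window with this pair also counts among those with AGATAA. The 10 pairs are shown because they carry this difference. Each stretch of 40 bases is read 5′ to 3′ in the direction that puts CTG first, is named for the nearest protein-coding gene, and has CTG and AGATAA in capitals.
Sec23ip region, chr7:128854850-128854889, minus strand: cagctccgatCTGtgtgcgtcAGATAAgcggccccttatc
Ifih1 region, chr2:62619851-62619890, plus strand: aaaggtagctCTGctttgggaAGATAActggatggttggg
Tmtc1 region, chr6:148603600-148603639, minus strand: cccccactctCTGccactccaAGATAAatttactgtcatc
Cabin1 region, chr10:75697148-75697187, plus strand: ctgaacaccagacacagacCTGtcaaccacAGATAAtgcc
Ivd region, chr2:118887987-118888026, plus strand: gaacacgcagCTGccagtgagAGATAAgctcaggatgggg
Psmd10 region, chrX:140953741-140953780, plus strand: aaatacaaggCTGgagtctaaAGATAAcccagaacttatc
Kdm8 region, chr7:125428985-125429024, minus strand: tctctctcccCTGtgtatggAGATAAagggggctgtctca
Tspan18 region, chr2:93353931-93353970, minus strand: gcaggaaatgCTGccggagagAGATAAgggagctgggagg
Adgra3 region, chr5:50126386-50126425, minus strand: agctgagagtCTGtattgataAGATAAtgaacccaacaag
Slc16a7 region, chr10:125161281-125161320, minus strand: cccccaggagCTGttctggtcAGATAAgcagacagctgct

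In 9 of the 10 stretches the gap between CTG and AGATAA was 8 bases, and in the Kdm8 stretch it was 7. The pairs lay between 4 and 943 bp from the midpoint of their region, with a median of 148 bp. Of the 10 regions, 4 were intronic and 6 intergenic, and none of the nearest genes was in the erythroid gene list used below. The score of a peak, the confidence value of the dREG classifier that called it, was ranked within its list as a percentile. The 10 regions ran from the Sec23ip region, at percentiles 94.8 and 88.6 in liver replicates 1 and 2, to the Slc16a7 region, at 40.1 and 28.1. When the 53 regions were ordered by the lower of their 2 percentiles, AGATAA was in 15 of the first 27 (55.6%, interval 37.3 to 72.4) and in 6 of the other 26 (23.1%, interval 11.0 to 42.1). The pair was in 5 of each part.

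Whole windows are shown for the 2 highest-ranked regions that hold the pair, and for a region 2402 bp from the start of Cp, which encodes the plasma copper protein ceruloplasmin. Capitals mark AGATAA, or TTATCT where it lies on the opposite strand, in the first and second, and the C/EBP letters TTGCNNAA, here on the opposite strand, in the third.
Sec23ip region, chr7:128854694-128854993, plus strand: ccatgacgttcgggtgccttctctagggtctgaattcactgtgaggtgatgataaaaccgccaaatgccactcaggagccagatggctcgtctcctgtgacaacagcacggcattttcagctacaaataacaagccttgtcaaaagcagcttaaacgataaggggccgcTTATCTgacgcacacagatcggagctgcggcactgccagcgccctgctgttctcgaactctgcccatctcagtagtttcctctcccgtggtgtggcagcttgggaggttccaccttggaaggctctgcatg
Ifih1 region, chr2:62619702-62620001, plus strand: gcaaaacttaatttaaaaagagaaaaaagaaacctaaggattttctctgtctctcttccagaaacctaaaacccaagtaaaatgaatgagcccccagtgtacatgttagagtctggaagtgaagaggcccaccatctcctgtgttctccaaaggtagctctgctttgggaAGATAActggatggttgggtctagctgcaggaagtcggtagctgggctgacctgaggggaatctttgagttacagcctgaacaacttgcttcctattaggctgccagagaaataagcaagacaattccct
Cp region, chr3:19953905-19954204, minus strand: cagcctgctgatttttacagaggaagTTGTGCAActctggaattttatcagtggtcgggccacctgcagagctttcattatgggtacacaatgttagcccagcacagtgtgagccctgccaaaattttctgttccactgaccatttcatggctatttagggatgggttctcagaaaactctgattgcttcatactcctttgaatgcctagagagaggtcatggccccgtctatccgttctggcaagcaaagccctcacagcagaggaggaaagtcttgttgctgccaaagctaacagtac

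The Cp window, on the strand of a predicted gene, has no AGATAA on either strand and 1 match to the C/EBP letters, those of a factor family active in hepatocytes and myeloid cells. It also holds 1 match to the letters GAGGAAGT of the blood factor PU.1, not marked, which overlaps the start of the C/EBP match. Its region stood at percentiles 68.5 and 74.2. A match is a description of the letters and was not tested as a binding site. The 53 windows are a small part of the set, and sequences of the other regions were not analysed here. Their regions also ranked high. The last of the first 27, the Eef2k region, had a lower percentile of 58.7, against a median of 30.5 over all 3055 regions. Shares in the 53 may therefore not hold for the whole set.

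**Figure D1:**
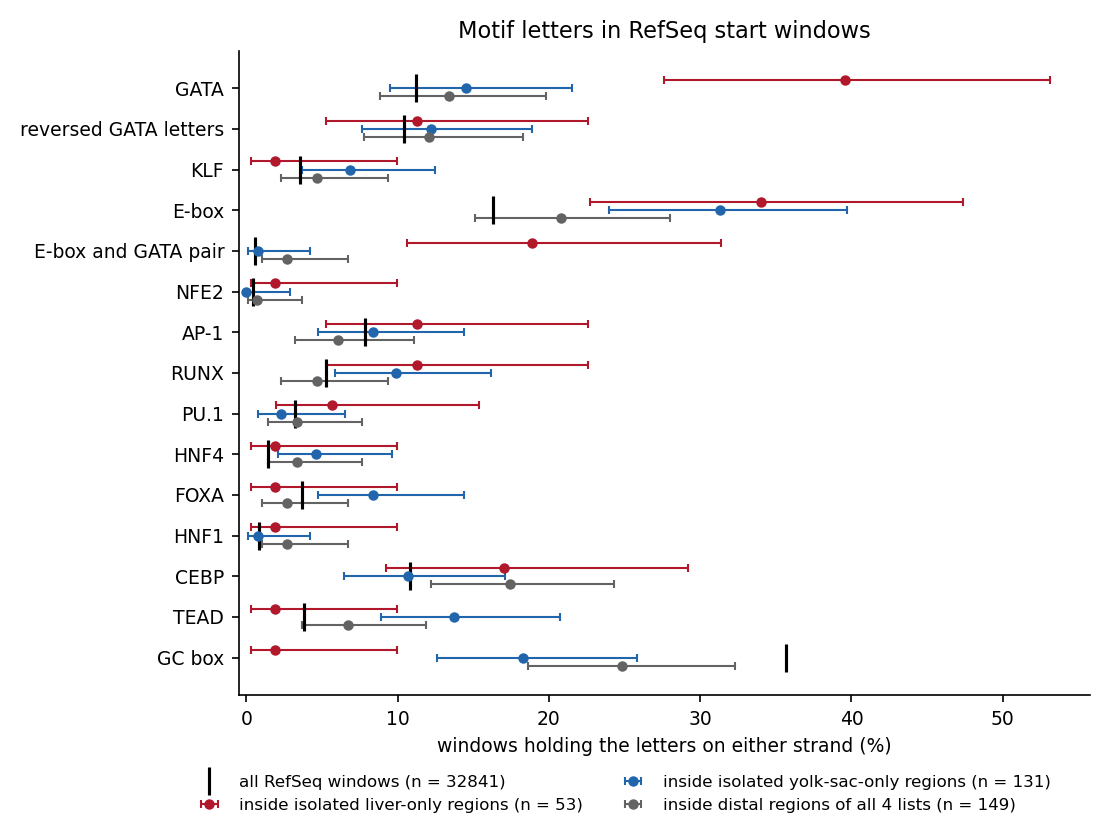
Share of RefSeq promoter windows of 300 bases (x axis, percent) that hold the letters of 15 motifs (y axis) inside isolated liver-only, isolated yolk-sac-only and shared distal regions. Points are shares, bars are 95% Wilson intervals and black ticks are all RefSeq windows; the liver-only points stand far to the right at the GATA letters (39.6%) and at the E-box and GATA pair (18.9%).

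The other motifs were also searched on both strands. The E-box letters CAGCTG were in 34.0% of the liver-only windows and 31.3% of the yolk-sac-only ones, against 16.3% of all windows. Of the hepatocyte factors, CAAAGTNCA (HNF4), TGTTTAC (FOXA) and GTTAATNAT (HNF1) were each in 1 of the 53 (1.89%), against 1.41%, 3.65% and 0.801% of all windows. In the yolk-sac-only windows their shares were 4.58%, 8.40% and 0.763%. TTGCNNAA (C/EBP) was in 9 (17.0%), against 10.8% of all windows, 10.7% of yolk-sac-only and 17.4% of shared ones. Any of these 4 was in 12 of the 53 (22.6%, against 15.6%). RUNX letters TGTGGTT were in 11.3%, against 5.27% of all windows and 9.92% of yolk-sac-only ones. PU.1 letters GAGGAAGT were in 5.66%, against 3.20% and 2.29%. TGANTCA (AP-1) was in 11.3%, against 7.81% and 8.40%. GCTGAGTCA (NFE2), which contains an AP-1 match, was in 1.89%, against 0.454% and 0%. CCACACCC (KLF) was in 1.89%, against 3.56% and 6.87%. TEAD letters GGAATGT were in 1 of the 53 (1.89%), against 3.84% of all windows and 13.7% of the yolk-sac-only ones. The GC box GGGCGG, a mark of broadly active promoters, was also in 1 of the 53, against 35.7% of all windows and 18.3% of yolk-sac-only ones. Median GC content was 49.0% in the liver-only windows, 49.3% in the yolk-sac-only windows and 52.7% in all.

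The regions were mostly inside genes. Of the 3055, 1942 (63.6%, interval 61.9 to 65.3) had their midpoint in an annotated gene. The share was higher, 68.0% (63.1 to 72.6), in the 369 clustered liver-only distal regions, those in longer chains. It was 58.1% (57.3 to 59.0) of 12728 isolated yolk-sac-only distal regions and 47.0% (45.4 to 48.5) of 3814 distal regions in all 4 lists. Introns held 1724 (56.4%), exons 218 (7.14%) and intergenic sequence 1113 (36.4%). Protein-coding genes hosted 1760, and for 1576 of those (89.5%) the host was also the gene with the nearest coding start. That share was 86.9% to 90.7% in the other sets. Within the host, 555 (31.5%) lay in the first 25% of the gene's length and 375 (21.3%) in the last 25%. In the other sets these shares were 27.5% to 30.1% and 15.3% to 24.9%. Of the intergenic regions, 740 of 1113 (66.5%) were upstream of the nearest coding gene, a share of 66.1% in the shared set. Such shares carry counting error only, and no test was run between sets, since regions of a list are not replicates.

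Distances to starts were moderate. The median was 7233 bp to the nearest transcript start of any gene, with 25% of the regions under 3130 bp and 25% above 16627 bp. The shared set had a median of 7410 bp and the yolk-sac-only set 9875 bp. Of the set, 140 regions (4.58%, interval 3.90 to 5.38) were over 50 kb from a start, against 8.05% of the yolk-sac-only set and 3.46% of the shared set. The farthest was in an intron of Spock1, a proteoglycan gene, at chr13:57577401-57578252 and 300723 bp from a start, with percentiles 76.9 and 84.8. The rule's distance threshold cut through near neighbours: the closest kept region, in an exon of Mta2, was 501 bp from a start, the farthest one left out 498 bp, and 20 kept regions lay within 600 bp. The chain threshold likewise fell between gaps of 12448 and 12548 bp.

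Most regions stood alone. There were 2297 with no like neighbour within 12.5 kb and 758 in 379 chains of 2, in which the median gap was 4348 bp. Of the 379 chains, 341 shared their nearest coding gene and 205 a coding host. A further 369 liver-only distal regions were in longer chains of up to 7 and are not in the set. Regions in chains of 2 had a median lower percentile of 36.6, against 29.2 for those alone. The median gap to the nearest yolk sac peak was 6348 bp. Such a peak lay within 1 kb of 255 regions (8.35%) and within 50 kb of 2807 (91.9%). In the clustered liver-only set the median gap was 9398 bp and the shares were 5.96% and 94.3%. The yolk sac lists held 50525 and 43055 peaks, and a peak within 50 kb was not particular to this set.

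The scores of the set lay somewhat below the middle of the liver lists, as did those of other distal sets. The median score was 1.04 in liver replicate 1 and 1.01 in replicate 2, at median percentiles of 41.8 and 35.6, where 50 would be the middle of the list. The median percentiles in the liver lists were 43.3 and 40.3 for the shared distal regions and 46.7 and 42.0 for the clustered liver-only ones. The set supplied 3064 of the 24863 peaks of replicate 1 (12.3%) and 3085 of the 24333 of replicate 2 (12.7%). Across the 3055 regions the percentiles of the replicates had a Spearman correlation of 0.721 and a Pearson correlation of 0.734, given as a description because regions share libraries. The median offset between the midpoints of the replicates' peaks was 75 bp. In 83 regions the percentiles differed by more than 50 points. Distal regions called in liver replicate 1 alone numbered 1881, with a median percentile of 11.8, and those in replicate 2 alone 1186, with 9.48.

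**Figure D2:**
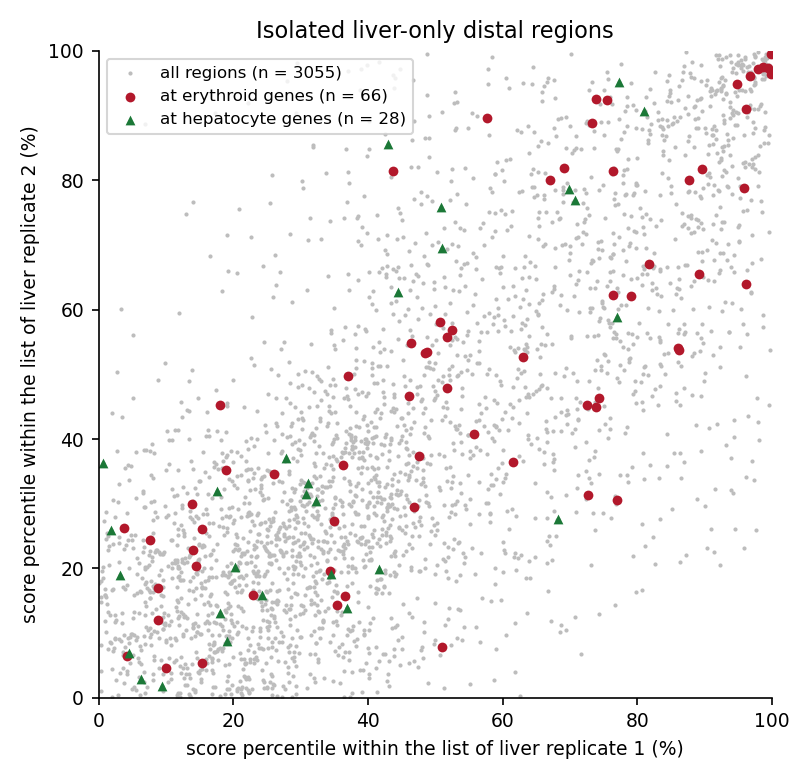
Score percentile of the 3055 isolated liver-only distal regions in the list of liver replicate 1 (x axis, percent) and of replicate 2 (y axis, percent), 1 point per region, with the 66 at erythroid genes as red circles and the 28 at hepatocyte genes as green triangles. The points lie along the diagonal (Spearman 0.721), and 29 of the 66 red points, 7 of the 28 green ones and 852 of all 3055 are in the higher-scoring 50% of both lists.

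The 10 highest-ranked regions, ordered by the lower of the 2 percentiles, were mostly intronic. Over the whole set intronic regions ranked below intergenic ones, with median lower percentiles of 29.5 and 34.2. The first-ranked region was at chr12:32103651-32105302, in an intron of the lincRNA 5430401H09Rik and 42355 bp upstream of Prkar2b, which encodes a regulatory subunit of protein kinase A. It scored 1.36 in liver replicate 1 and 1.38 in replicate 2, both at the very top of their lists. The second, at chr13:73474151-73476502, was 2400 bp inside Lpcat1, an enzyme gene of phospholipid remodelling, with scores of 1.36 and 1.33. The third was intergenic at chr16:8810451-8811602, 18143 bp upstream of Usp7, a deubiquitinase gene, with 1.33 and 1.31. All of these genes had promoter peaks in the 4 lists.

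Sox6, which encodes a transcription factor required for normal red cell maturation and globin switching, had the fourth, at chr7:115830451-115832052 with scores of 1.36 and 1.29. Then came introns of Ltbp2, a matrix protein gene, at chr12:84818751-84820102 (1.30 and 1.28), and of Zfp652, a zinc finger repressor gene, at chr11:95777101-95779402 (1.29 and 1.29). An intron of Slc4a5, a bicarbonate transporter gene, followed at chr6:83245551-83247602 (1.28 and 1.27). The others of the leading 10 were in introns of Tpm1 (tropomyosin, chr9:67024651-67025952, 1.29 and 1.27), Syt7 (a synaptotagmin, chr19:10444201-10445452, 1.28 and 1.26) and Slc22a23 (a transporter, chr13:34329101-34331802, 1.27 and 1.26). Ltbp2 and Slc4a5 had no promoter peak in any of the 4 lists, although their introns held 2 of the highest-ranked regions.

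By count, genes of red cells had more of the regions than those of any other cell type list. The lists differ in length, and the shorter one of 21 blood progenitor genes had 25 regions. Of a list of 67 annotated erythroid genes, 35 had at least 1 of the regions inside them or nearest to them, 66 regions in all. That was 2.16% of the set (interval 1.70 to 2.74), against 0.503% of yolk-sac-only regions (0.394 to 0.642) and 0.655% of shared regions (0.444 to 0.966). The clustered liver-only regions, which the isolation rule set aside, had 5.15%, and there the alpha-globin genes, Slc4a1 and Ank1 were among the genes. Without liver replicate 2 the share fell to 1.26%, as single-list calls were then admitted, and the yolk-sac-only share in that setting was 0.509%.

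Several of these regions were at genes of the red cell membrane and its skeleton. Sptb, beta-spectrin, held an intronic region at chr12:76673701-76674902 with percentiles 98.7 and 97.6, and a second one 69.1 and 82.0. Epb41, protein 4.1, had 4 regions, of which the leading one at chr4:132059751-132060952 reached 97.9 and 97.2 and the lowest 13.8 and 29.9. The 2 regions nearest to Epb42, protein 4.2, were unequal, at 95.9 and 78.9 for one and 35.5 and 14.4 for the other.

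Enzyme and factor genes of the same lineage followed. Bpgm, which makes the haemoglobin effector bisphosphoglycerate, had 4 regions, led by chr6:34485701-34487102 at 99.9 and 96.5. Hemgn, a nuclear protein of red cell precursors, had a region in an exon at chr4:46395501-46396802 at 96.8 and 96.2. Of haem synthesis genes, Cpox had 2 intergenic regions at 75.5 and 92.5 and at 73.9 and 92.6, and Alas2 had 1 at 30273 bp, with 46.2 and 46.7. Among transcription factor genes, Gata1 had an intronic region 2991 bp from its start at 43.8 and 81.5, Gfi1b 1 at 46.5 and 54.8, and Zfpm1, the GATA cofactor, 5, of which the highest-ranked stood at 26.0 and 34.7. Regions lay 773 bp from Hbb-bs and 1094 bp from Hbb-bt. Those adult beta-globin genes are near-identical copies whose reads can be misplaced, and their values are uncertain.

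**Figure D3:**
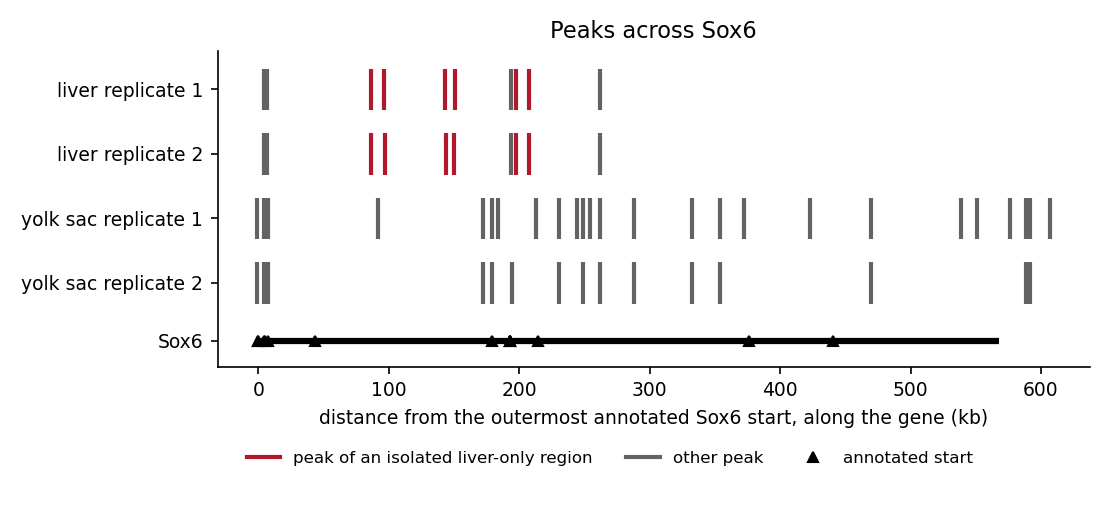
Peaks across Sox6 in the 4 libraries (rows), placed by distance from the outermost annotated start along the gene (x axis, kb), with annotated starts as triangles. The 6 isolated liver-only regions (red) are in both liver rows between about 86 and 208 kb, while the yolk sac rows have 25 and 15 peaks spread over the gene and its flanks.

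Sox6 shows how such regions can sit in a gene that is active in both tissues. Across the gene, which is 567.9 kb long, and 50 kb on each side, the liver lists had 10 peaks each and the yolk sac lists 25 and 15. The liver peaks included 6 isolated liver-only regions, in 3 chains of 2. Besides the leading region their percentiles in liver replicates 1 and 2 were 94.9 and 94.9, 87.7 and 80.0, 73.3 and 88.9, 79.1 and 62.2, and 73.8 and 45.0. At the outermost start both yolk sac lists had a peak and neither liver list did. Near the annotated starts from 4.283 to 7.749 kb all 4 lists had peaks, those of liver between 3.894 and 7.595 kb.

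Hepatocyte genes had fewer of the regions. Of 96 listed genes, 20 had 28 regions, 0.917% of the set (interval 0.635 to 1.32). The share was 0.809% in the yolk-sac-only set and 1.28% (0.973 to 1.69) in the shared set, and the intervals overlapped. Without liver replicate 1 the count rose to 44 (1.06%, against 0.717% of yolk-sac-only and 1.15% of shared regions), and without replicate 2 it was 33 (0.716%, against 0.806% and 1.15%). With lists of equal length the share was 0.953%, against 0.504% and 1.22%, and in the higher-scoring 50% it was 1.07%, against 0.624% and 0.699%. The regions also ranked lower: the median lower percentile was 23.9 for the hepatocyte group and 46.4 for the erythroid group.

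Lipc, hepatic lipase, led the hepatocyte group with regions at chr9:70914301-70915552 (percentiles 81.0 and 90.7) and chr9:70921151-70922852 (77.3 and 95.2). Cps1, the first enzyme of the urea cycle, had an intergenic region at chr1:67103451-67104102, 18924 bp upstream, at 70.8 and 76.9. Nr5a2, a nuclear receptor of bile acid and cholesterol metabolism, had one at chr1:137010151-137011052 at 69.9 and 78.7. Nr0b2, the bile acid-responsive corepressor, had one at chr4:133557051-133557852 at 77.1 and 58.8. Fah, the last enzyme of tyrosine breakdown, had an intronic one at chr7:84587001-84587952 at 51.0 and 69.5. A region 13085 bp from Afp, next to Alb, stood at 34.5 and 19.1. Prox1, a factor of early hepatocytes, had 5 regions, up to 50.9 and 75.8.

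Other blood lineages were also present. Blood progenitor genes had 25 regions at 8 of 21 genes (0.818%, against 0.275% of yolk-sac-only and 0.288% of shared regions). Runx1, a master factor of blood stem cells, had 9, more than any other nearest gene, led by the intronic chr16:92764651-92765402 at 96.4 and 95.9. Its intergenic regions were counted only as nearest to it and lay 57302 to 370652 bp from its start. Ikzf1, a lymphoid and progenitor factor, was led by chr11:11728701-11729952 at 99.7 and 96.2, and Kit, the stem cell factor receptor, by chr5:75459951-75461852, 113064 bp upstream, at 96.1 and 93.8. Megakaryocyte genes had 7 regions at 5 of 19 genes (0.229%, interval 0.111 to 0.472, against 0.0707% and 0.0787%, whose intervals of 0.0372 to 0.134 and 0.0268 to 0.231 overlap it), among them a pair inside Iqgap2 upstream of the thrombin receptor gene F2rl2 and another pair in Vwf, von Willebrand factor.

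Counts were low at the remaining lists, of myeloid, endothelial, yolk sac endoderm and mesenchymal genes. Myeloid genes had 3 regions (2 at Ncf4 and 1 at Prtn3), endothelial genes 6, led by a region at Eng with percentiles 51.1 and 49.7, yolk sac endoderm genes 2 (Gata4 and Dab2) and mesenchymal genes 2 (Bmp4 and Hand1). As shares these were 0.0982%, 0.196%, 0.0655% and 0.0655%, against 0.189%, 0.306%, 0.212% and 0.377% in the yolk-sac-only set.

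**Figure D4:**
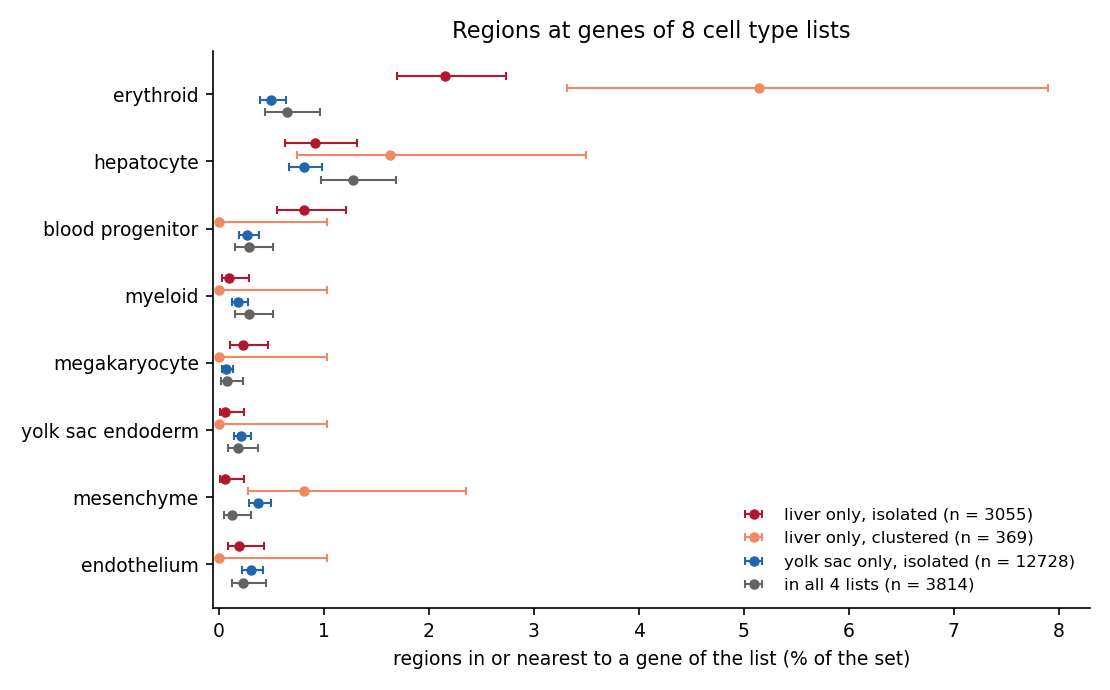
Share of each set of distal regions (x axis, percent of the set) that lies in, or nearest to, a gene of 8 cell type lists (y axis). Points are shares and bars 95% Wilson intervals; at erythroid genes the isolated liver-only set (2.16%) stands above the yolk-sac-only (0.503%) and shared (0.655%) sets, and at hepatocyte genes the intervals overlap.

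The tissue labels were checked on the promoters of the same lists, which the rule did not use. Peaks within 500 bp of a start were found at 63 and 62 of 67 erythroid genes in liver replicates 1 and 2, and at 42 and 41 in yolk sac replicates 1 and 2. For the 96 hepatocyte genes the counts were 74, 72, 70 and 69, and for 13 yolk sac endoderm genes 10, 9, 12 and 12. Alas2, Gata1, Klf1, Slc4a1 and Hba-a1 were called in both liver lists and in neither yolk sac list. Amn and Cubn, receptors of the absorptive endoderm, were the reverse, and Alb, Ttr, Apob and Hnf4a were called in all 4. Hba-a2, the other adult alpha-globin gene, was called in none of the 4, and the calls at Hba-a1 and Hba-a2 are uncertain.

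The next comparison asked whether the genes nearest to the regions also had liver-only promoters. The 3055 regions had 2251 distinct nearest protein-coding genes. Of those, 58 (2.58%) had a promoter peak in both liver lists and in neither yolk sac list, against a background of 1.01% of all 21951 protein-coding genes. In the opposite direction 73 (3.24%) had a yolk-sac-only promoter, against a background of 5.25%. Promoters called in all 4 lists were the most common state, at 1750 genes (77.7%), and 258 had no promoter peak in any list. For the nearest genes of the yolk-sac-only regions the liver-only and yolk-sac-only shares were 0.709% and 8.08%, and for those of the shared regions 0.947% and 3.75%.

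By library, the nearest genes had a promoter peak in 82.1% (liver replicate 1), 83.2% (liver replicate 2), 84.6% (yolk sac replicate 1) and 84.1% (yolk sac replicate 2) of cases. The liver mean was 82.7 ± 0.722% and the yolk sac mean 84.3 ± 0.408% (SD, n = 2). The difference of -1.69 points was larger than the spread between replicates, and the groups did not overlap, but the exact two-sided permutation test gave p = 0.333, the smallest that 2 libraries against 2 allow. The value depended on the peaks used. It was -7.89 points when only the higher-scoring 50% of peaks were kept. With each list cut to as many peaks as the shortest holds it reversed to +6.18 points (exact permutation p = 0.333), and the liver-only count rose to 153 (5.08%), against a background in that setting that rose to 660 of all coding genes (3.01%). All coding genes had 56.1% and 57.9% in liver and 63.8% and 62.4% in yolk sac. Relative to all coding genes, the nearest genes were thus ahead by 26.1 and 25.3 points in liver and by 20.9 and 21.6 points in yolk sac. This gap between the tissues also had an exact permutation p of 0.333. With lists of equal length these leads were 26.3 and 25.9 points in liver and 21.6 and 22.3 points in yolk sac.

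**Figure D5:**
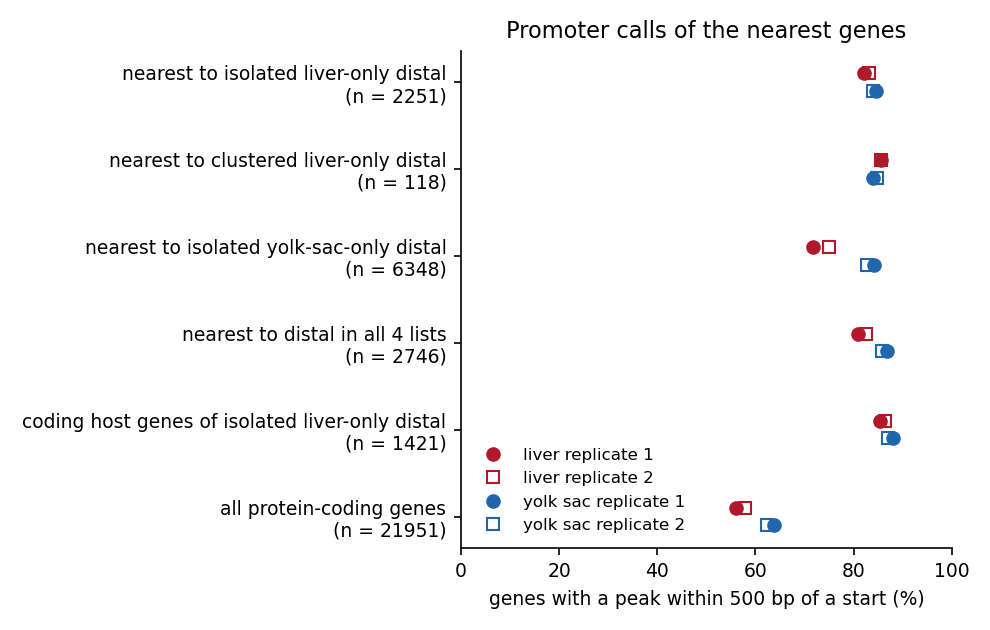
Share of protein-coding genes with a peak within 500 bp of a start (x axis, percent) in each of the 4 libraries, for the nearest genes of 4 sets of distal regions, for host genes and for all coding genes (y axis). The nearest genes of isolated liver-only regions are at 82.1% to 84.6% in every library, while those of yolk-sac-only regions are lower in liver (71.74% and 74.97%) than in yolk sac (84.1% and 82.8%).

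All 35 erythroid genes with a region had a promoter peak in both liver lists, and 25 and 26 had one in the yolk sac lists. In all 4 lists 25 of the 35 were called, and 9 were liver-only: Alas2, Epb42, Gata1, Gfi1b, Hbb-bs, Hbb-bt, Hemgn, Kel and Rhd. The 32 erythroid genes without an isolated region had 10 such promoters, so the share was no higher where an isolated region lay nearby. Some of those 10, Slc4a1 and Hba-a1, were at clustered liver-only regions. Of the 20 hepatocyte genes with a region, 4 were liver-only, Ambp, Cps1 and Hp among them, against 7 of the 76 without. Of 5 megakaryocyte genes 4 were (F2rl2, Gp1ba, Tubb1 and Vwf), against 2 of the 14 without. The count was 1 of 8 for blood progenitor genes and 0 for the other lists.

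RefSeq windows of the liver-only nearest genes held AGATAA in 14 of 50 (28.0%, interval 17.5 to 41.7), against 5.95% of 1917 windows of nearest genes with promoters in all 4 lists, and the CTG and AGATAA pair in 4 of 50, against 0.469%. AATAGA was in 12.0% and 6.94%. AGATAA was also in 20.6% of windows of all listed erythroid genes and in 18.5% (interval 11.9 to 27.6) of those of hepatocyte genes. Of the 50 windows, 7 overlapped no peak in any list, and 2 of those 7 held AGATAA. The 50 came from 43 of the 58 genes. Some windows of the same gene, such as those of Slc6a12, overlapped one another, which the interval does not allow for. The GC box was in 10 of the 50 and in 64.2% of the 1917. The 4 promoter pairs are shown as the distal ones above, in stretches of 40 bases with CTG and AGATAA in capitals, for comparison with the distal set.
Ackr1 promoter, chr1:173333454-173333493, plus strand: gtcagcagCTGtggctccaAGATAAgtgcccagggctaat
Epb42 promoter, chr2:121037077-121037116, plus strand: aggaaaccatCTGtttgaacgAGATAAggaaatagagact
Kel promoter, chr6:41704363-41704402, minus strand: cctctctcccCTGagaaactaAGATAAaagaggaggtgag
Ubash3a promoter, chr17:31208054-31208093, minus strand: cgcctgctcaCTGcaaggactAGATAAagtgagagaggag

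All 4 have a gap of 8 bases between the letters. Kel encodes a red cell surface antigen, Epb42 protein 4.2, Ackr1 the Duffy chemokine receptor of red cells and Ubash3a a lymphoid phosphatase. The regions belonging to these genes stood at a lower percentile of 54.1 for Kel, 78.9 for the leading one of Epb42, 34.2 for Ackr1 and 58.2 for the leading one of Ubash3a.

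Regions were spread over many genes. Of the 2251 nearest genes, 1663 had 1 region, 441 had 2, 101 had 3, and 46 had 4 or more. After Runx1 came Fars2, a mitochondrial tRNA synthetase gene of 608869 bp, with 7, and 3 genes with 6, among them Sox6 and Cpeb4.

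At the imprinted cluster named in the series title, 2 regions lay in the Dlk1-Dio3 interval. One at chr12:109441601-109442402 was intergenic, 10421 bp upstream of Dlk1, and scored 0.870 and 0.918. The other, at chr12:109608001-109608952 in an intron of the noncoding gene Rian, scored 0.857 and 0.908. Both were thus in the lowest 25% of each liver list. The alleles were not separated in these lists.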

How the data were processed

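PRO-seq peak lists of 2 liver and 2 yolk sac libraries were used, 1 list per library as deposited. Each holds peak positions and a deposited dREG score, which has no unit and was not scaled between libraries; it was used only to rank or filter within a list. The lowest score was 0.80. The build is mm10, and Bowtie2 and bedtools were used, per the submitters' processing notes; the settings and the dREG version are not given in the sources used here. The lists hold no reads, and depth is unknown.

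Regions, distances and host genes were computed with Python 3.11.15, numpy 2.4.6 and scipy 1.17.1 against GENCODE M21 (55450 genes), with 1-based positions. A region counted for a list of genes if its host or nearest coding gene was in it. Wilson intervals are at 95% and cover counting error only. The rule was tested on simulated lists. Members and gene lists were chosen with earlier results of these data known. Named regions were the 10 highest by the lower percentile, up to 6 or 3 per gene list, those in the Dlk1-Dio3 interval and those at the thresholds. Genes outside this rule, and the sequences shown, were named after their values were seen. The 94 members on chromosome 18 were counted and not named, and some named regions are not reported here.

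Alternatives were other score cuts, merge and chain distances, start and promoter windows, host in place of nearest gene, each library left out and the replicate block. Windows that only overlap a region were an alternative added after the data were seen. The scan of RefSeq windows replaced a planned scan of all regions.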

Additional observations from a re-analysis of the deposited data

How the results depend on the processing

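With the higher-scoring 50% of each list, the set held 1210 regions, 57.5% of them inside genes, 36 at erythroid and 13 at hepatocyte genes, with 31 liver-only nearest genes (3.12%, against 1.32% of all coding genes), and the promoter difference was -7.89 points. With each list cut to the length of the shortest, the promoter difference at the nearest genes reversed from -1.69 to +6.18 points and the liver-only nearest genes rose to 153 (5.08%, against 3.01% of all coding genes). With host in place of nearest genes there were 33. Leaving out 1 library at a time gave 3162 to 4606 regions, 28 to 44 of them at hepatocyte genes, the highest counts coming without liver replicate 2 and without liver replicate 1. The erythroid share stayed above the yolk-sac-only and shared ones in all 11 settings that redraw the regions (1.26% to 2.98%). AGATAA was in 33.8% of windows when all 77 overlapped windows were used, in place of 39.6%. With the replicate number as a block the promoter difference was -1.69 points (exact permutation p = 0.5, the smallest possible). The within-tissue differences between replicates had a correlation of 0.00267 over 15689 regions. That value cannot show whether liver and yolk sac samples of the same number were paired. The promoter difference ran from -1.40 to -2.55 points in the remaining settings, with 52 to 87 liver-only nearest genes where nearest genes were used. Members found again ranged from 27.4% (higher-scoring 50%) to 100% (chain gap 5 kb). Read depth is unknown. The scans of GATA and hepatocyte-factor letters over all members, and of GATA letters in all distal peaks by library, 3 planned results, were not run.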

Other observations

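Liver-only promoters next to the regions included genes outside the 8 lists, named here after their values were seen. Pon1, which encodes the plasma esterase paraoxonase, had 4 regions, the highest number among the 58 liver-only nearest genes, at a lower percentile of up to 43.5. Aqp9, a glycerol and urea channel of hepatocytes, had 3, up to 82.4, and Fcnb, a ficolin of myeloid cells, had 3, up to 61.2. Further liver-secreted or metabolic genes with 1 region each were Tmprss6, the hepatocyte protease that restrains hepcidin (48.4), Lect2 (27.0), Fabp1 (19.5), Gulo (14.3), Mbl1 (7.89) and Serpina6 (3.56). Genes of other blood cells were Mmrn1 of platelets with 2 regions (62.2), Blnk of B cells (87.9), Spn of leukocytes (33.4) and Treml4 of myeloid cells (60.1). All of these were picked for a known role in liver or blood. Genes of the 58 not picked this way included Olfr324 (97.1), Cnnm1 (95.7) and Noxa1 with 2 regions (88.0). Btn1a1 (76.9), Htr2a (65.9) and Muc6 (52.5) were others.

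A region 2864 bp from the start of Epo, the red cell growth hormone gene, stood at percentiles 85.5 and 89.8, and its RefSeq window held none of the 15 sets of letters. Chromosome 13 held 5.99% of the regions and 4.69% of all distal regions; chromosome 2 held the most, 254.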
